A study of Mus musculus with 2 samples.

Results

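Wnt signalling was described through 50 genes in the midbrain of the mouse embryo. The genes were 19 ligands, 15 receptors and co-receptors, 13 secreted modulators and 3 pathway targets or effectors. They were chosen by name, and each symbol was matched through the GENCODE mouse annotation to the Ensembl identifier of the gene tables. All 50 were found among 43346 measured genes. Total RNA longer than 200 nt was sequenced in 2 libraries, each prepared from 10 ng of total RNA to which spike-in RNA was added. Both libraries belong to 1 group, healthy midbrain of B6NCrl embryos at embryonic day 13.5, pooled from male and female embryos, and the labels number them as biological replicates 2 and 1 with separate biosample entries. There was no treatment, mutant, second tissue or second age, and the sources used here do not give the number of embryos in a pool. The questions were therefore which genes of the pathway were measured in this tissue, how related genes stood to each other, and how far the libraries differed.

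Wnt proteins are lipid-modified secreted signals that bind Frizzled receptors. With the co-receptors Lrp5 and Lrp6 they protect beta-catenin from destruction, and beta-catenin then acts in the nucleus with TCF and LEF factors; through Ror1, Ror2 and Ryk they also act without beta-catenin on cell shape, polarity and axon growth. In the developing midbrain, Wnt1 at the boundary with the hindbrain and in the roof plate is needed for the region to form, and Wnt signals on the ventral side act in the making of dopamine neurons.

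Replicate 2 held 40215359 and replicate 1 held 31436613 expected reads on genes. An expected read count is an estimate that divides reads matching several features and need not be whole. Levels are given in TPM, a unit that corrects for gene length and has the same total in every library, with replicate 2 first, and means are given ± SD over n = 2 libraries. The spike-in share of TPM was 9.39% in replicate 2 and 5.36% in replicate 1, which lowers the TPM of every gene by that share. All 7 midbrain identity genes (Otx2, Meis2, Pax3, Tal2, En1, Pax7 and En2) were at or above 1 TPM in each library and summed to 252.2 and 224.0 TPM, whereas 0 of 6 hindbrain Hox genes did, with a sum of 0.32 and 0.53 TPM and Hoxb1 and Hoxa3 at 0. In a piece of tissue, fewer cells of a type and less RNA per cell cannot be told apart.

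Most genes of the set were present, and levels differed by role. Detected, meaning at or above 1 TPM in each library, were 36 of the 50 genes (72.0%), against a background of 34.3% of all genes and 60.2% of 21474 protein-coding genes. Of the ligands 9 of 19 passed, of the receptors 13 of 15, of the secreted modulators 11 of 13, and of the targets and effectors 3 of 3. The receptors summed to 156.3 and 142.9 TPM and the ligands to 106.7 and 97.98 TPM. The secreted modulators summed to 107.3 and 106.4 TPM. The targets and effectors reached 520.7 and 509.9 TPM, of which Ctnnb1 supplied 83.9% and 84.5%. The mean was 10 TPM or more for 14 of the 50 genes, of which 3 were ligands, 4 receptors, 4 modulators and 3 targets or effectors. The median gene of the set had a mean of 3.11 TPM, against 4.46 TPM for protein-coding genes and 0.09 TPM for all genes. By role the median was 1.44 TPM for ligands, 5.63 TPM for receptors, 4.44 TPM for modulators and 68.5 TPM for targets and effectors.

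**Figure D1:**
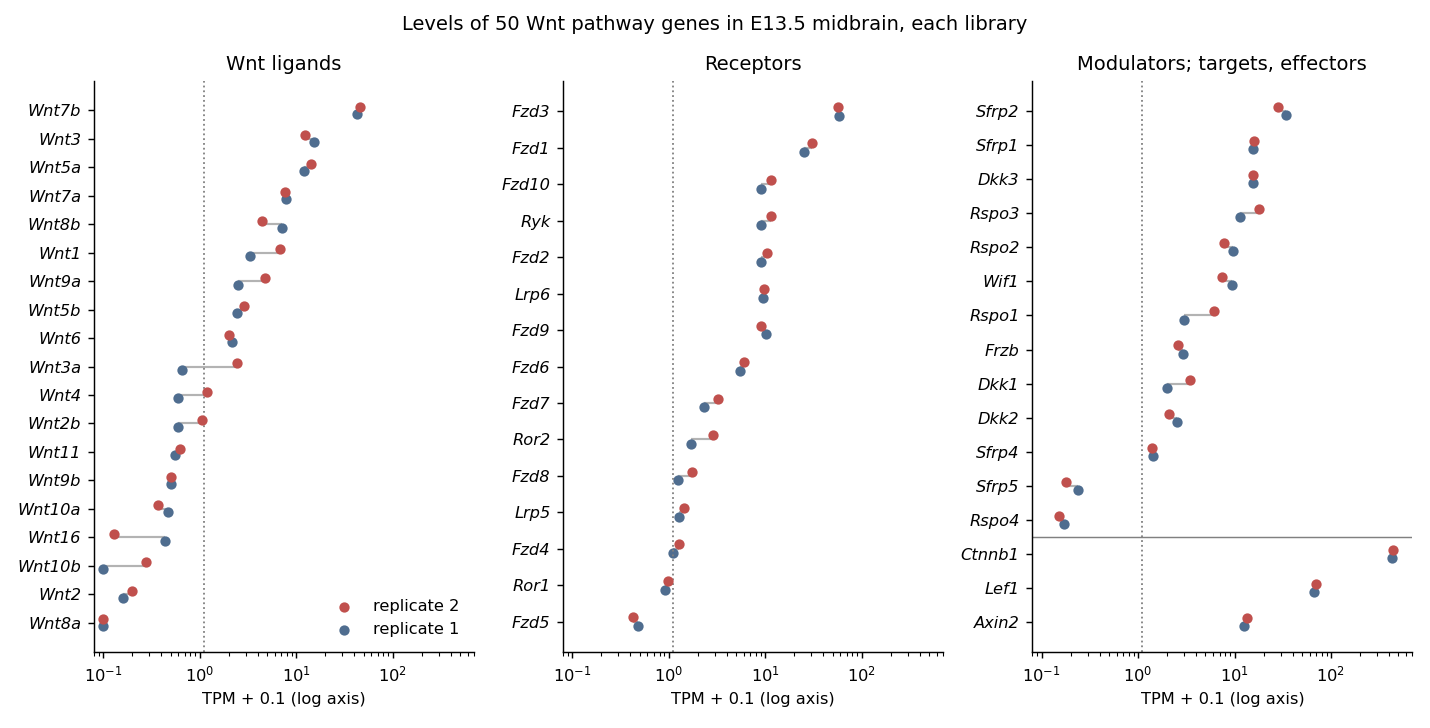
TPM plus 0.1 on a log axis for each of the 50 genes, ordered by mean within each role, with 1 point per library (replicate 2 above replicate 1) and a grey line joining them; the dotted line marks 1 TPM. Wnt7b, Fzd3, Sfrp2 and Ctnnb1 lead their panels in both libraries, and the widest separations among genes above 1 TPM in either library are those of Wnt3a, Wnt4, Wnt1, Rspo1 and Wnt9a.

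Wnt7b was the most abundant ligand. It stood at 46.39 and 43.04 TPM (44.7 ± 2.37, n = 2) and supplied 43.5% and 43.9% of all ligand TPM. Wnt7b (ENSMUSG00000022382, GRCm38 chr15:85535437-85582473, minus strand) encodes a beta-catenin-dependent ligand made by neural progenitors and neurons, known for its action on the blood vessels of the brain. The libraries differed little in its level, and no other ligand came near it in either.

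Wnt3 and Wnt5a came next. Wnt3 (ENSMUSG00000000125, chr11:103774150-103817957, plus strand), a ligand of the beta-catenin branch, measured 12.24 and 15.20 TPM. Wnt5a (ENSMUSG00000021994, chr14:28504750-28527448, plus strand), the best known ligand of the beta-catenin-independent branch and active in the ventral midbrain, measured 14.09 and 11.83 TPM. Their ranges overlapped, with Wnt5a above Wnt3 in replicate 2 and Wnt3 above Wnt5a in replicate 1. Wnt7a, the close relative of Wnt7b, measured 7.66 and 7.68 TPM, nearly the same in both libraries. Wnt8b, a ligand of the dorsal forebrain and caudal diencephalon, measured 4.36 and 7.0 TPM, lower in replicate 2. These 5 ligands together held 79.4% and 86.5% of ligand TPM.

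Wnt1 (ENSMUSG00000022997, chr15:98789857-98793837, plus strand), the ligand of the roof plate and isthmus named above, was a minor part of the total. It measured 6.71 and 3.26 TPM, which was 6.29% and 3.33% of ligand TPM. Wnt9a, known from joint development, measured 4.67 and 2.40 TPM. Wnt5b, the relative of Wnt5a, measured 2.81 and 2.34 TPM. In the order of levels the ranges of Wnt8b, Wnt1 and Wnt9a each overlapped that of the next gene. Within each library Wnt1 lay above Wnt9a and Wnt9a above Wnt5b, the latter by little in replicate 1. Wnt8b lay below Wnt1 and Wnt9a in replicate 2 and above both in replicate 1, so its place beside them is not resolved. Wnt6 had 1.90 and 2.04 TPM and was the last ligand detected by the rule.

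Wnt3a (ENSMUSG00000009900, chr11:59248033-59290752, minus strand), a beta-catenin-dependent ligand of the dorsal midline of the brain, measured 2.32 and 0.56 TPM, above 1 TPM in replicate 2 only. Wnt4, needed in kidney and gonad development, showed the same split at 1.09 and 0.49 TPM. Wnt2b measured 0.96 and 0.50 TPM and was under 1 TPM in both. Wnt11, which acts in convergent extension and kidney branching, had 0.53 and 0.46 TPM, and Wnt9b, which acts in kidney tubule formation, had 0.41 TPM in each library. The remaining ligands rested on few reads. Wnt10a, known from teeth and hair, had 13 expected reads in each library, Wnt2, known from lung specification, 6 and 2, and Wnt16, known from bone, 2 and 12. Wnt10b had 7 reads in replicate 2 and 0 in replicate 1. Wnt8a, a ligand of the early embryo, had 0 reads in both, which allows up to 3 reads in each (0.0746 CPM in replicate 2 and 0.0954 CPM in replicate 1, of the reads on genes and for counting error only).

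Among the receptors, Fzd3 stood highest. Fzd3 (ENSMUSG00000007989, chr14:65192449-65262463, minus strand), a Frizzled known for axon guidance and planar cell polarity, measured 56.98 and 58.01 TPM (57.5 ± 0.73, n = 2). It supplied 43.7% and 47.9% of the TPM of the 10 Frizzled genes. Fzd1 (ENSMUSG00000044674, chr5:4753839-4758035, minus strand) measured 30.70 and 25.13 TPM, or 23.5% and 20.8%. Both genes stood apart from each other and from every other receptor in both libraries. The level of Fzd3 rests on a 4157 nt transcript in the M4 annotation behind the deposited values, where M21, which gives the position, has 12734 nt.

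A group of receptors near 10 TPM followed, whose order differed between the libraries. Fzd10, a Frizzled of the dorsal neural tube, measured 11.40 and 8.93 TPM, and Ryk, a Wnt-binding receptor of the kinase family with a role in axon guidance, 11.30 and 8.87 TPM. Fzd2 measured 10.32 and 8.86 TPM, and Fzd9 8.86 and 10.01 TPM. Lrp6 (ENSMUSG00000030201, chr6:134446476-134566965, minus strand), the co-receptor of the beta-catenin branch, lay within the same band at 9.59 and 9.39 TPM. The ranges of neighbours in this stretch (Fzd10, Ryk, Fzd2, Lrp6 and Fzd9) overlapped each other. Within each library Fzd10 lay above Ryk and Ryk above Fzd2, by little in replicate 1. Lrp6 and Fzd9 lay below these 3 in replicate 2 and above them in replicate 1. Fzd6, which acts with Fzd3 in tissue polarity, measured 5.85 and 5.41 TPM.

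The low receptors included Fzd7 (3.15 and 2.21 TPM), a relative of Fzd1 and Fzd2, and Ror2 (2.77 and 1.58 TPM), a receptor tyrosine kinase that binds Wnt5a. Fzd8 had 1.64 and 1.14 TPM, and Lrp5, the second co-receptor, 1.32 and 1.18 TPM. Fzd4, which also binds the non-Wnt ligand norrin in the retina, had 1.17 and 1.00 TPM, at the limit of the rule. Fzd5 (0.32 and 0.38 TPM) and Ror1 (0.89 and 0.81 TPM) were the receptors under 1 TPM. Fzd1, Fzd2, Fzd7, Fzd8, Fzd9 and Fzd10 are annotated with 1 exon each and no intron, so splicing cannot tell newly made from mature RNA.

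By TPM, Sfrp2 led the secreted modulators. Sfrp2 (ENSMUSG00000027996, chr3:83766321-83774316, plus strand), a soluble Frizzled-related protein that binds Wnts, measured 27.95 and 33.76 TPM (30.8 ± 4.11, n = 2), which was 26.1% and 31.7% of modulator TPM. Its relative Sfrp1 measured 15.84 and 15.37 TPM. By expected reads Sfrp1 was the higher in both libraries, at 1810 and 1316 against 1423 and 1288 for Sfrp2. The lead of Sfrp2 therefore rests on the correction for length. Frzb, another member of that family, had 2.5 and 2.85 TPM, and Sfrp4 1.31 and 1.32 TPM. Sfrp5 was near the floor at 0.08 and 0.14 TPM. The Wnt-binding inhibitor Wif1 measured 7.25 and 9.39 TPM, lower in replicate 2.

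The R-spondins, which bind Lgr receptors and raise Wnt receptor levels, were split by gene. Rspo3 (ENSMUSG00000019880, chr10:29452416-29535867, minus strand) measured 17.85 and 11.33 TPM. Rspo2 measured 7.61 and 9.48 TPM and Rspo1 5.98 and 2.90 TPM. Rspo3 and Rspo1 were the higher in replicate 2, and Rspo2 the lower. Rspo4 had 3 reads in each library. Of the Dickkopf genes, Dkk3, a divergent member, measured 15.49 and 15.45 TPM. Dkk1, an inhibitor that binds Lrp5 and Lrp6, measured 3.34 and 1.91 TPM and Dkk2 2.01 and 2.42 TPM. Dkk1 and Dkk2 overlapped each other, and Dkk3 lay above both in each library.

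**Figure D2:**
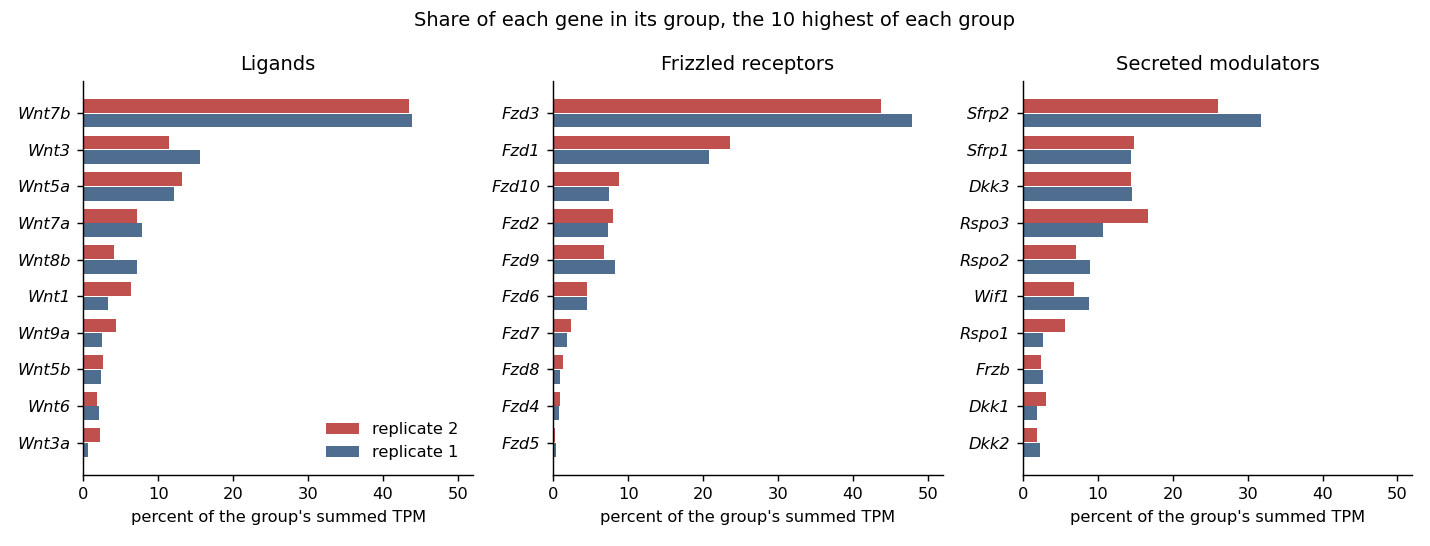
Percent of the summed TPM of the ligands, the Frizzled receptors and the secreted modulators supplied by each gene, for the 10 highest genes of each group, with 1 bar per library (replicate 2 above replicate 1). Wnt7b and Fzd3 each supply over 40% of their group in both libraries, while Sfrp2 supplies 26.1% in replicate 2 and 31.7% in replicate 1.

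The effector Ctnnb1 (ENSMUSG00000006932, chr9:120929216-120960507, plus strand), which encodes beta-catenin, was the most abundant gene of the set. It measured 436.78 and 430.79 TPM (434 ± 4.24, n = 2), at the 98.8th percentile of protein-coding genes by mean TPM. Beta-catenin also links cadherins to the cytoskeleton at cell contacts, so its RNA level is no measure of pathway activity. Lef1, the nuclear partner of beta-catenin, measured 70.43 and 66.59 TPM (68.5 ± 2.72, n = 2), and Axin2, a feedback inhibitor and widely used target of the pathway, 13.45 and 12.50 TPM (13.0 ± 0.67, n = 2). Lef1 stood 5.25-fold above Axin2, by 2.38 and 2.40 on the log2(TPM + 0.1) scale, a scale on which folds of low genes are understated.

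The Lef1 transcripts differed in exons that change the protein. Lef1 lies at chr3:131110471-131224356 on the plus strand (ENSMUSG00000027985), and its annotated transcripts vary in 2 cassette exons of the coding region. The first, of 84 nt, keeps the reading frame. The second, of 41 nt, brings its own stop codon, so that transcripts with it end in other codons than those without it. These sequences are shown because they set the alternative proteins apart; they come from the GENCODE M21 transcripts on GRCm38, in lower case 5′ to 3′, and the capitals mark the stop codon.
First cassette exon, chr3:131191023-131191106, plus strand: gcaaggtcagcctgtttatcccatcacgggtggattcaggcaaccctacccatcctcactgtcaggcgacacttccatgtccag
End of the coding sequence with the second cassette exon, chr3:131204933-131204967, plus strand: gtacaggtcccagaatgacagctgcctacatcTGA
End of the coding sequence without it, chr3:131223076-131223155, plus strand: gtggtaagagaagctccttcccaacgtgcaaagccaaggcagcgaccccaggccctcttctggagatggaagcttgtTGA

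The transcript ENSMUST00000106341, which lacks both cassette exons, held 68.6% and 64.1% of Lef1 (66.4% ± 3.20, n = 2), a share that is per length and was estimated by the authors' software. ENSMUST00000066849, with the second cassette exon alone, held 22.4% and 28.6%. The second cassette exon was thus carried by 25.5% and 29.5% of Lef1 in all, counting the transcript with both exons. The first cassette exon was carried by 3.07% and 0.89%, from 196 and 40.3 expected reads. The main transcript was the same in both libraries, and the 84 nt exon was rare in both. A further 5.18% and 5.77% was assigned to ENSMUST00000136147, annotated as a retained intron.

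Transcript shares of the other genes were read where the gene reached 5 TPM in both libraries and had at least 2 annotated transcripts. The leading transcript was the same in both libraries for 12 of 12 such genes, against 92.8% of 7988 genes under the same rule. For Ctnnb1, ENSMUST00000178812 held 59.1% and 57.7% and ENSMUST00000007130 36.2% and 37.4%. Wnt7b was mostly ENSMUST00000023015, at 88.9% and 92.4%. These shares are per length on M4 models, and ENSMUST00000178812 has 3422 nt there and 2702 nt in M21. The leading transcript differed in length by more than 10% between the annotations for 5 of the 50 genes, Ctnnb1, Fzd3, Fzd4, Fzd8 and Rspo3. Fzd3 and Sfrp2 were assigned to a single protein-coding transcript in full.

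Wnt5a was divided between transcripts with different start sites. Transcripts that start upstream (ENSMUST00000063465, from position 28504750 of chromosome 14, and ENSMUST00000134766) held 45.7% and 35.5% of Wnt5a, and those that start downstream (led by ENSMUST00000112272, from position 28511405) held 54.3% and 64.5%. ENSMUST00000112272 led per length in both libraries at 42.2% and 51.1%, although the longer ENSMUST00000063465 took more reads, 981 and 509, against 565 and 430. The gene had 1584 and 964 reads in all, so by reads the upstream class was the larger in both libraries. Short transcripts weigh in the shares per length, as ENSMUST00000134766 held 7.98% and 4.44% from 7.16 and 2.51 reads. The leading transcript of Wnt5a and the order of its start classes therefore rest on the correction for length. For Axin2 the leader was the same by reads and per length, but its share was not, since the full-length ENSMUST00000052915 held 47.9% and 49.1% with 717 and 512 of 920 and 656 reads, while the short ENSMUST00000144511 held 17.9% and 24.7% from 38.2 and 36.7 reads.

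Ryk was the gene of this group with the widest spread in its minor transcripts. Its main coding transcript ENSMUST00000035142 held 56.2% and 66.1%, a second coding transcript ENSMUST00000175883 27.0% and 12.4%, and ENSMUST00000176198, annotated for nonsense-mediated decay, 8.33% and 17.7%. Wif1 had 19.1% and 22.6% assigned to ENSMUST00000145691, annotated as a retained intron. Lrp6 was mostly ENSMUST00000032322, at 89.0% and 89.5%, and Fzd6 mostly ENSMUST00000179165, at 85.0% and 78.6%.

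**Figure D3:**
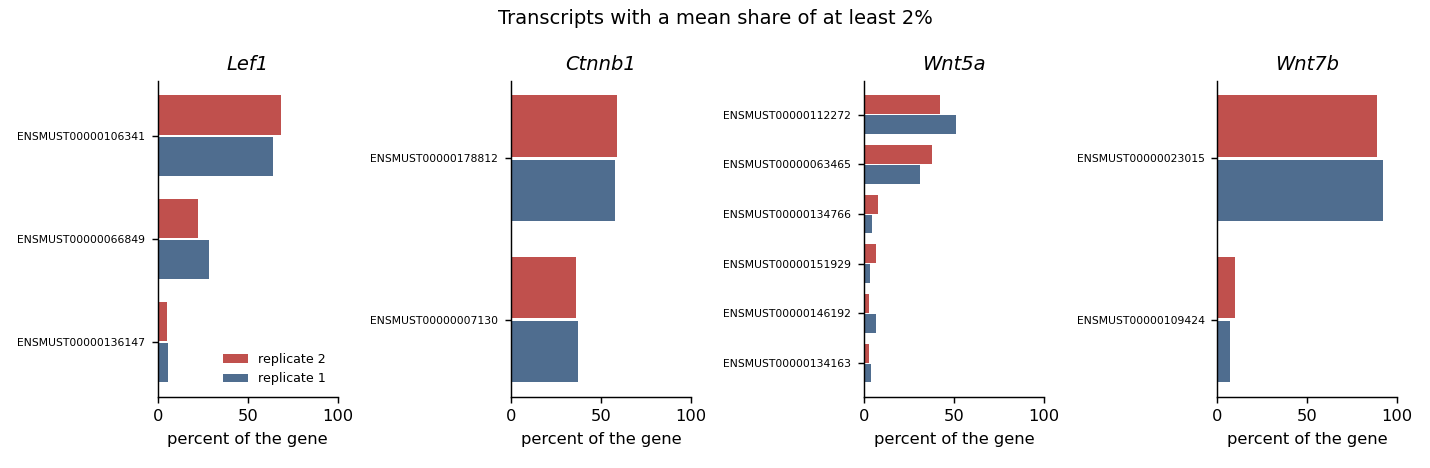
Percent of Lef1, Ctnnb1, Wnt5a and Wnt7b assigned to each annotated transcript with a mean share of at least 2%, with 1 bar per library (replicate 2 above replicate 1). The leading transcript of each gene is the same in both libraries, and Wnt5a is spread over the most transcripts.

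Most of the closely related genes compared stood at unequal levels. Of 26 pairs of related or neighbouring genes compared within each library, 25 had the same order in both. The exception was Fzd9 against Fzd10, with log2 differences of -0.36 in replicate 2 and 0.16 in replicate 1. The share with the same order among other pairs of genes was not computed, so 25 of 26 is no trait of this set. Pairs with Wnt8a, Wnt10b, Wnt2 or Sfrp5 set a gene against another with few or no reads. Wnt7b exceeded its relative Wnt7a 5.76-fold (2.58 and 2.47 on the log2 scale), and Wnt5a exceeded Wnt5b 4.88-fold (2.29 in each library). Wnt3a lay below Wnt3 by -2.35 and -4.54 on the log2 scale, the pair with the widest spread between the libraries. Lrp6 exceeded Lrp5 7.11-fold (2.77 and 2.89), a mean of 2.83 that was 2.22 with 1 TPM added in place of 0.1. The same change took the mean of Wnt3a below Wnt3 to -2.69, against -3.44. Fzd1 exceeded Fzd7 10.2-fold (3.24 and 3.45) and Fzd3 exceeded Fzd6 10.1-fold (3.26 and 3.40). In these pairs of receptors the libraries differed by far less than the genes. Dkk3 lay 5.92-fold above Dkk1 (2.18 and 2.95). The beta-catenin-dependent ligand Wnt7b exceeded Wnt5a 3.44-fold (1.71 and 1.85). An exact test over 2 libraries cannot give a p below 0.5, so none was made.

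Several Wnt genes are neighbours in the genome, and the neighbours did not share a level. Wnt10b and Wnt1 lie on opposite strands of chromosome 15 with 11.7 kb between them, and Wnt1 had 409 and 149 reads where Wnt10b had 7 and 0. Wnt9b and Wnt3 on chromosome 11 lie 24.3 kb apart, with 0.41 TPM for Wnt9b in each library against 12.24 and 15.20 TPM for Wnt3. Wnt6 and Wnt10a on chromosome 1 lie 6.2 kb apart on the same strand, with 1.90 and 2.04 TPM for Wnt6 and 0.27 and 0.37 TPM for Wnt10a. Wnt3a and Wnt9a on chromosome 11, 16.2 kb apart on opposite strands, were both at least 2-fold higher in replicate 2.

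Among genes of the set with a mean of 50 or more reads, Wnt3a, Wnt4, Wnt1, Wnt9a and Rspo1 differed most between the libraries, and all 5 were higher in replicate 2. Ratios are replicate 2 over replicate 1, from rounded counts with 0.5 added, after TMM scaling (a scaling on the bulk of all genes). No test is possible between single libraries. Genes were therefore counted by a rule of size, a ratio of 2-fold or more at a mean of 50 or more reads. Of the 40 genes of the set with that many reads, 5 (12.5%) were at least 2-fold higher in replicate 2 and 0 were at least 2-fold lower. The background was 0.724% of 14366 genes in either direction, 0.508% higher and 0.216% lower. The 95% intervals below are exact (Clopper-Pearson) and cover counting error only, not the spread between embryos.

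Wnt3a was the most different of these genes. It had 165 reads in replicate 2 and 30 in replicate 1, 4.2-fold higher in replicate 2 (95% interval 2.87 to 6.51). Wnt4 had 119 and 40 reads and was 2.28-fold higher (1.6 to 3.38). Wnt1 had 409 and 149 reads and was 2.12-fold higher (1.76 to 2.58). All 3 genes are ligands, and so was Wnt9a, with 402 and 155 reads and a ratio just inside the rule at 2.00 (1.66 to 2.43). The ratio of TPM put Wnt9a just below it, at 0.93 on the log2 scale. Rspo1, a secreted modulator, had 267 and 101 reads and was 2.04-fold higher (1.62 to 2.6). Wnt2b lay just outside the rule at 1.95-fold (1.32 to 3.0), from 89 and 35 reads.

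At 1.5-fold, 10 of the 40 genes (25.0%) passed, against 3.31% of all genes. The 9 that were higher in replicate 2 (background 2.06%) were the 5 above with Wnt2b, Dkk1 (1.80-fold, 1.41 to 2.35), Ror2 (1.80-fold, 1.45 to 2.24) and Rspo3 (1.63-fold, 1.46 to 1.81). The 1 that was lower (background 1.25%) was Wnt8b, with 382 and 460 reads and a ratio of 0.643 (0.560 to 0.738). The most abundant gene of each role by TPM lay within 1.5-fold. Wnt7b had a ratio of 1.11 (1.06 to 1.17), Fzd3 of 1.01 (0.976 to 1.05), Sfrp2 of 0.855 (0.793 to 0.923) and Ctnnb1 of 1.05 (1.03 to 1.06). Other genes at 10 TPM or more included Fzd1 at 1.26, Wnt5a at 1.27 and Wnt3 at 0.831. The ratio of Fzd3 was above 1 by counts and below 1 by TPM, and so was that of Sfrp4. That of Wnt6, 0.991, was above 1 only with library totals.

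Over the 40 genes the median log2 ratio was 0.165, against 0.004 for all genes tested. Of the 40, 30 were positive and 10 negative, where 50.9% of all genes tested were positive. With other scalings the median lay between 0.116 and 0.179. The median without sign was 0.267, against 0.101 for all genes. By role the median log2 ratio was 0.307 for 12 ligands, 0.282 for 14 receptors, 0.025 for 11 modulators and 0.118 for the 3 targets and effectors. Among the receptors 13 of 14 had a positive ratio (background 50.9%) and 0 passed 2-fold, with Fzd9 the exception at -0.13. From TPM the ratio of Fzd3 was negative too.

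**Figure D4:**
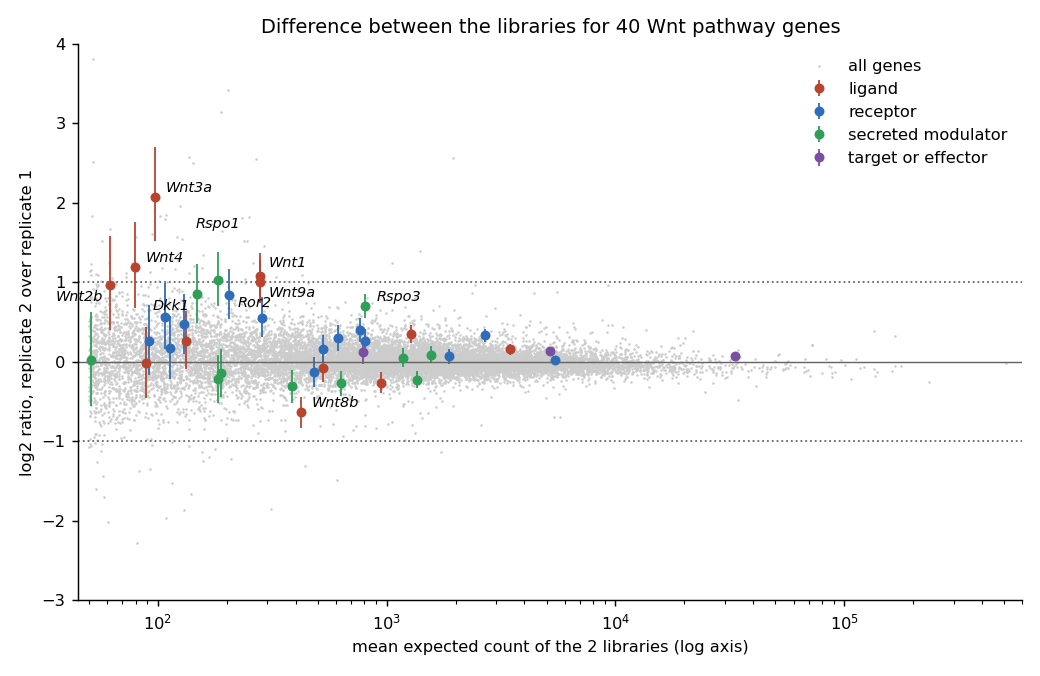
Log2 ratio of replicate 2 over replicate 1 against the mean expected count on a log axis, for the 40 genes of the set with a mean of 50 or more reads (coloured by role, bars are exact 95% intervals for counting error) and all genes above that count (grey; 4 lie outside the plotted range). The dotted lines mark 2-fold; Wnt3a, Wnt4, Wnt1, Rspo1 and Wnt9a lie at or above the upper line and 0 of the 40 lie below the lower one.

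Marker lists of neighbouring regions differed between the same libraries. The background was 0.508% of genes at least 2-fold higher in replicate 2 and 0.216% at least 2-fold lower. Of 5 cortex genes 3 were at least 2-fold higher in replicate 2 (Emx1 3.89-fold, Eomes 3.57-fold and Tbr1 3.14-fold), and the list summed to 48.98 and 35.33 TPM. Most of that sum was Neurod6 (22.41 and 18.87 TPM) and Emx2 (15.89 and 13.41 TPM), each 1.23-fold higher. Of 6 floor plate genes 3 were higher (Shh 2.44-fold, Corin 2.36-fold and Foxa2 2.05-fold), with a sum of 98.35 and 63.82 TPM. Spon1 (1.84-fold) and Ntn1 (1.83-fold) of that list were also higher, and Lmx1a was lower (0.757). Of 6 genes of thalamus and pretectum 2 were at least 2-fold lower (Gbx2 at 0.454 and Olig3 at 0.356 of replicate 1), with a sum of 681.0 and 941.2 TPM. Most of that sum was Tcf7l2 (453.77 and 647.36 TPM), and Lhx2 was the 1 gene of the list with a ratio above 1, at 1.06. The roof plate list, the region where Wnt1, Wnt3a and Rspo1 are known to be made, summed to 38.02 and 33.27 TPM. Of its 5 genes with enough reads 0 passed 2-fold, Bmp6 was 1.79-fold and Msx1 1.42-fold higher, and the median log2 ratio was 0.318. The lists for choroid plexus (246.0 and 177.3 TPM), meninges and mesenchyme (339.9 and 277.4 TPM) and midbrain identity (median log2 ratio 0.222) had 0 genes past 2-fold, and Ttr of the choroid plexus came closest at 1.95-fold. Most of the choroid plexus sum was Ttr (116.55 and 61.75 TPM) and Otx2 (117.17 and 104.49 TPM), which is also in the midbrain identity list. The isthmic list, which covers the other known source of Wnt1, summed to 101.8 and 120.7 TPM, most of it Cnpy1 (66.71 and 73.68 TPM). Of its 4 genes with enough reads 0 passed 2-fold, and the median log2 ratio was -0.224, from Spry2 at 0.689 to Fgf17 at 1.01. Fgf8 (2.21 and 1.72 TPM) and Pax2 (0.49 and 0.86 TPM) had too few reads for the median. In these 8 lists 0 genes were at 0 in both libraries. The lists for radial glia, neurons, endothelium, pericytes, microglia and erythroid cells also had 0 genes past 2-fold, with medians from -0.066 to 0.144. The part of these marker differences in the ratios of Wnt3a, Wnt4, Wnt1, Wnt9a, Rspo1 and Wnt8b was not tested.

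**Figure D5:**
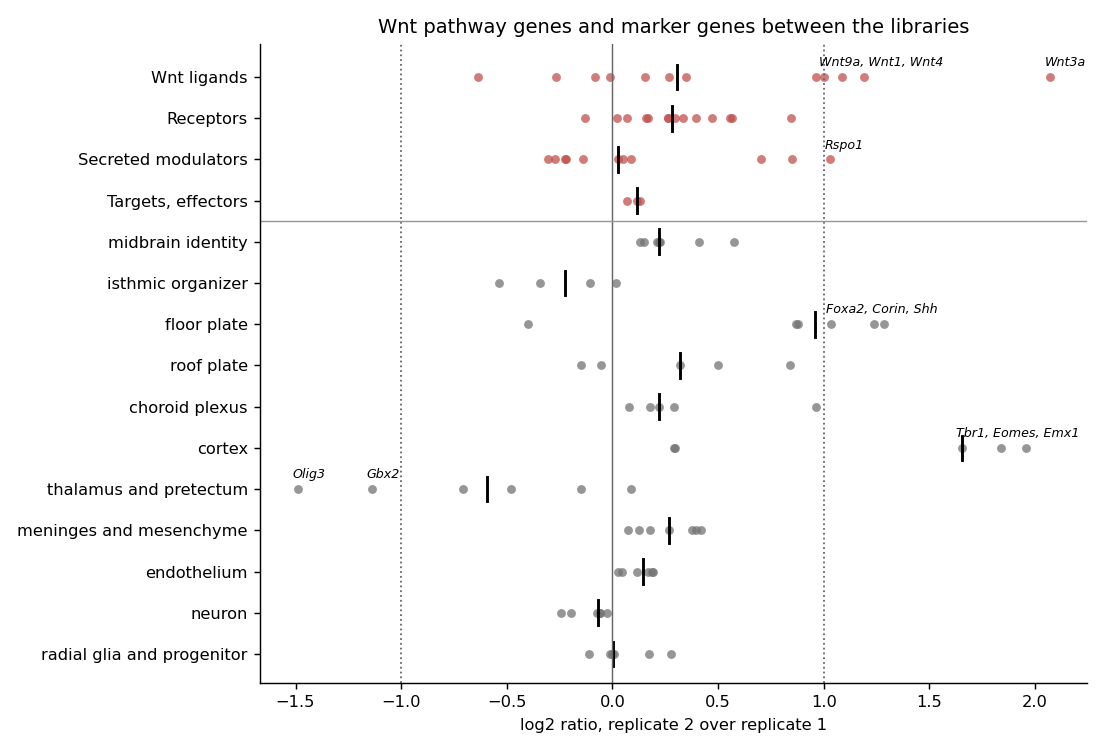
Log2 ratio of replicate 2 over replicate 1 for each gene with a mean of 50 or more reads, by role of the Wnt genes (red) and by marker list (grey); black ticks are medians and dotted lines mark 2-fold. Among the markers, Emx1, Eomes and Tbr1 (cortex) and Shh, Corin and Foxa2 (floor plate) lie furthest to the right. Olig3 and Gbx2 (thalamus and pretectum) lie furthest to the left. Other genes of these lists lie nearer equality, with Lmx1a (floor plate) at -0.40 and Lhx2 (thalamus and pretectum) at 0.09. The ligands spread from Wnt8b at -0.64 to Wnt3a at 2.07.

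From the rest of the pathway 52 genes were listed, and 46 of them were detected, against a background of 60.2% of protein-coding genes. Of the 45 with a mean of 50 or more reads 0 were 2-fold apart in either direction, a share near the background of 0.724%. Their median log2 ratio was 0.112 and the range ran from -0.478 for Tcf7l2 to 0.686 for Sp5. Wls and Porcn, which carry and acylate Wnt proteins for secretion, measured 75.24 and 66.06 TPM and 32.75 and 33.09 TPM. For the R-spondin receptors and the ligases that remove Frizzled, Znrf3 measured 6.27 and 7.88 TPM and Lgr4 6.20 and 6.81 TPM, while Rnf43 and Lgr6 were under 1 TPM in both libraries. All 14 cytoplasmic transducers were detected, led by the kinase genes Csnk1a1 (209.85 and 237.07 TPM) and Csnk1e (208.09 and 186.83 TPM) and by Apc2 (161.83 and 147.96 TPM).

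Tcf7l2, a TCF factor that is also a marker of thalamus and pretectum, exceeded Lef1 in both libraries, at 453.77 and 647.36 TPM. All 7 planar cell polarity genes were detected, with Celsr2 at 52.03 and 47.0 TPM and Vangl2 at 44.39 and 48.79 TPM. Of 11 further genes commonly used as targets of beta-catenin 9 were detected. Ccnd1 measured 108.63 and 112.50 TPM and Nkd1 34.13 and 29.71 TPM. Sp5, at 14.15 and 9.08 TPM, was the furthest from equality of those with a mean of 50 or more reads, and Notum and Rnf43 were under 1 TPM. Of 13 other extracellular inhibitors and co-receptors 9 were detected, including Reck (4.69 and 4.93 TPM) and Adgra2 (1.33 and 1.27 TPM), the partners through which Wnt7 ligands act on brain vessels.

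Few of these values rest on shared reads. The deposited posterior SD of the count, which is above 0 when reads could belong to several features, was 0 in both libraries for 39 of the 44 genes of the set whose mean count was 10 or more (88.6%), against 66.8% of all such genes. The exceptions were Wnt5a, Fzd5, Sfrp2, Axin2 and Ctnnb1, and the highest of their SDs was 3.70 reads, for Sfrp2 in replicate 2. Another gene is annotated over 14 of the 50, and for 13 of them on the other strand. These overlaps are of whole gene spans, introns included. The sources used here do not say whether strand was used in counting, so whether reads that fall on both genes of a pair were told apart is not known. The partner levels were low, at 3.62 and 3.21 TPM for Ulk4 beside Ctnnb1, 1.72 and 1.51 TPM for Gm26771 beside Sfrp2, and 0.53 and 0.33 TPM for AU022754 beside Wnt7b. Wnt5b, at 2.81 and 2.34 TPM, was the exception, since its partner Fbxl14 measured 2.74 and 3.39 TPM. The posterior SD of Wnt5b was 0 in both libraries, so by that measure none of its counted reads was shared.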

How the data were processed

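Gene and transcript tables of 2 libraries were used. Their assembly was mm10 and their annotation GENCODE M4, per the deposited text beside them. The authors' expected counts, TPM, FPKM and percent of a gene per transcript were used as deposited, and the score column is the deposited posterior SD of the count, per the file headers. RNA was extracted with Ambion mirVana and a SMARTer Ultra Low manual is linked, per the labels. The aligner and strand setting: not given in the sources used here. Symbols and positions came from GENCODE M21 (GRCm38), matched on identifiers without version. The libraries differed by more than sampling noise and were not merged.

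Expected counts were rounded, scaled with TMM in edgeR 4.0.16 (R 4.3.3), and ratios were given exact 95% intervals. Spike-in and tRNA entries stayed out of scaling. The alternatives were size factors of DESeq2 1.42.0, totals of reads on genes, TPM and FPKM, other minimums and pseudocounts, and each library alone. The ratio procedure was tested on counts simulated with sampling noise only. The libraries differed by more than that, so the simulation does not cover the spread between them. Named were all 50 genes and, of other lists, up to 3 highest genes, genes in small counts and genes 2-fold apart. Tal2, En1, Pax7, En2, Lmx1a, Bmp6, Sp5, Reck and Adgra2 fall outside that rule and were chosen after their values were seen. The genes and lists were chosen with earlier results of these data known. SDs and intervals measure only these libraries. Of the cortex markers, 1 gene is not reported here.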

Additional observations from a re-analysis of the deposited data

How the results depend on the processing

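The count of genes at least 2-fold apart, 5 at a mean of 50 or more reads, was 3 at a minimum of 100, 8 with no minimum and 10 at 1.5-fold. It was 4 from TPM, where Wnt9a was lost, and 5 with DESeq2 size factors, with library totals or with a minimum of 10. The genes detected numbered 29 to 44 under other minimums and units, and 36 to 38 from 1 library alone. Expected counts without length put Wnt7b at 44.8% of ligands, Fzd3 at 48.9% of Frizzled genes and Sfrp2 at 20.6% of modulators; from 1 library the TPM shares ranged from 43.5% to 43.9%, 43.7% to 47.9% and 26.1% to 31.7%. The same leading transcript was found for 19 of 19 genes at 1 TPM, 7 of 7 at 10 TPM and 8 of 8 with shares of at least 10%. Of 26 pairs, 16 moved by more than the spread between libraries with a pseudocount of 1, 9 with 0.01 and 4 with FPKM. Fzd9 over Fzd10 had a mean of -0.10 on the log2 scale, -0.36 without replicate 1, and reversed to 0.16 without replicate 2; the cause was not tested. No paired analysis was possible because there is 1 group. Depth limits the ratios of the 10 genes under a mean count of 50.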
